A study of Mus musculus with 8 samples.

Results

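The 10 genes *Acta2*, *Tagln*, *Cnn1*, *Myh11*, *Myocd*, *Smtn*, *Rgs5*, *Lmod1*, *Mylk* and *Actg2*, which mark smooth muscle and mural cells, were followed in the outflow tract (OFT) of mouse embryos at embryonic day 11.5. They were chosen by name, with earlier results of these data known, and all 10 were listed among the 14608 genes measured. Their values are therefore given as a description, and nothing is read from how many of them differ between the groups. RNA-seq of polyadenylated RNA was available for 4 libraries labelled control and 4 labelled *Mib1V943F/+ Gata6STOP/+*. The second genotype carries 1 copy of a missense allele of *Mib1*, a ubiquitin ligase needed for NOTCH ligands to signal, and, on the other chromosome copy, 1 null allele of *Gata6*, a zinc finger transcription factor. Both alleles are germline alleles, present in every cell of the embryo, and the controls are called wild type in their titles and control in their genotype label, with no allele or strain named. The question was how the compound genotype alters gene expression in the tissue that forms the aortic and pulmonary valves. Each library is a pool of embryos, which the labels put at 3 individuals. The study's methods instead give 3 pools for each genotype, made of 4 OFT pairs each, although 4 libraries of each genotype are listed. The number of embryos behind a library is therefore uncertain, and the number of pools differs from the methods.

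Smooth muscle cells contract by sliding actin and myosin filaments, and the genes for this machinery are switched on together by serum response factor and its coactivator myocardin. Mural cells are the smooth muscle cells and pericytes that wrap blood vessels. In the embryonic heart the wall of the OFT is still largely myocardial at its base, and smooth muscle forms in its distal part from neural crest and second heart field cells. *Acta2*, *Tagln* and *Myocd* are also transcribed in early heart muscle, so that a bulk library does not assign their RNA to smooth muscle. In bulk tissue, fewer cells of a type and less RNA per cell cannot be told apart.

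Values are read counts scaled by library size (CPM), and a log2 fold change is the difference mutant minus control of log2(CPM + 0.5), which understates the change of genes near 0. The libraries held between 10669420 and 30469165 reads on listed genes, the fewest in control 2, where 1 read was worth 0.0948 CPM. *Gata6* averaged 261.8 ± 18.5 CPM in control-labelled libraries against 249.3 ± 36.1 CPM in mutant-labelled ones (mean ± SD, n = 4 per group), and *Mib1* averaged 121.8 ± 15.6 and 127.5 ± 6.62 CPM. Neither separates the groups, so the labels could not be checked from RNA and the libraries are called control-labelled and mutant-labelled. For *Gata6* this differs from the study, which states that quantitative PCR put its mRNA at the level predicted for a heterozygous null allele. Here the ratio of the means was 0.952, with 236.5 to 279.3 CPM in control-labelled and 213.2 to 284.1 CPM in mutant-labelled libraries. The cause of this difference was not tested. Of 12 OFT and second heart field markers 10 were listed, while *Fgf8* and *Tdgf1* were not. Mutant 2 stood apart from the other mutant-labelled libraries: in limma's estimate of library quality, where equal quality gives every library the same weight, its weight was 0.308, against 0.518 in control 2 and 1.09 to 2.02 in the other 6. Where leaving out mutant 2 moved the log2 fold change of a named gene by over 1.5 times, or turned the direction of a gene or of the median of a list, the value without it is given too.

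None of the 10 genes passed the test, limma with Benjamini-Hochberg adjustment over all genes at a threshold of 0.05, and neither did any other gene (0% of 14608, smallest adjusted p 0.124). The study used another test, a generalized linear model of counts in edgeR, and did report differentially expressed genes at the same threshold. That test was not run here, so the 0% holds for limma on CPM alone. Of the 10, *Rgs5*, *Actg2* and *Myh11* (3 genes) were higher in every mutant-labelled library than in any control-labelled one, a pattern that 3.2% of all genes showed. *Myocd* (1 gene) was lower in every mutant-labelled library, as were 3.9% of all genes. At an unadjusted p under 0.05 the same 3 were higher, against 5.45% of all genes, and *Myocd* and *Smtn* were lower, against 6.62%. The log2 fold changes of the 10 were positive for 6 and negative for 4, with a median of 0.06, beside a median of 0.0010 over all genes. The abundant contractile genes *Acta2*, *Tagln* and *Cnn1* had log2 fold changes of -0.03, 0.06 and -0.05.

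**Figure D1:**
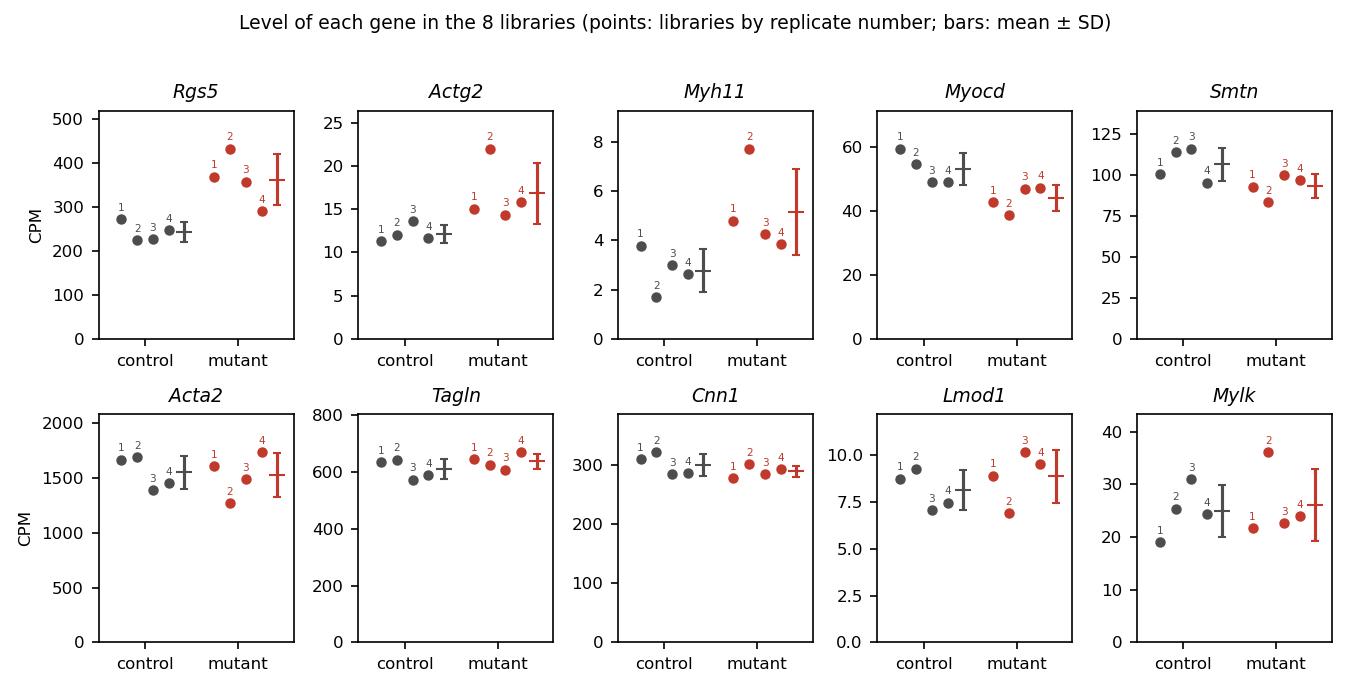
Level of each of the 10 genes in CPM (y axis, from 0, a separate scale for each gene) in the 4 control-labelled (grey) and 4 mutant-labelled (red) libraries, numbered by replicate, with the mean and SD of each group beside the points. For Rgs5, Actg2 and Myh11 every mutant-labelled point lies above every control-labelled point, for Myocd every one lies below, and mutant 2 is the highest mutant-labelled point of 5 genes and the lowest of 4.

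*Rgs5* encodes a GTPase-activating protein that shortens signalling through G protein-coupled receptors and is a widely used marker of pericytes and arterial smooth muscle. Its level was 271.9, 223.7, 227.2 and 247.3 CPM in control 1 to 4 and 368.4, 432.3, 357.2 and 290.4 CPM in mutant 1 to 4. The groups did not overlap, and the lowest mutant-labelled library, mutant 4, was 290.4 CPM against 271.9 CPM in the highest control-labelled one. The means were 242.6 ± 22.2 and 362.1 ± 58.1 CPM, a ratio of 1.49. The log2 fold change was 0.57 (SE 0.11, 95% confidence interval 0.33 to 0.80, limma adjusted p 0.142), and by p-value *Rgs5* ranked 21 of all 14608 genes. Without mutant 2 the log2 fold change was 0.48 (limma adjusted p 0.195). *Rgs5* is on the plus strand of chromosome 1, from 169655501 to 169695813 in GRCm38 (ENSMUSG00000026678).

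The 250 bases before the start of *Rgs5* are shown because it had the smallest p-value of the 10 genes. They lie at chr1:169655251-169655500 on the plus strand (RefSeq, GRCm38.p6), hold no base of an annotated exon, and contain 1 CCAAT motif, here on the reverse strand as ATTGG in capitals.
Rgs5: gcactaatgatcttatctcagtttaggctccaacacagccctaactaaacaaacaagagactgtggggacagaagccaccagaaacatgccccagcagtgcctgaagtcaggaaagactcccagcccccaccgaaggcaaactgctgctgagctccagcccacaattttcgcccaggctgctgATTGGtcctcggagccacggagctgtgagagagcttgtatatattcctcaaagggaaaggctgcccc

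*Myh11* encodes the smooth muscle myosin heavy chain, the member of the 10 that is most restricted to differentiated smooth muscle. It was measured at 3.78, 1.71, 2.99 and 2.62 CPM in control 1 to 4 and at 4.81, 7.73, 4.26 and 3.85 CPM in mutant 1 to 4. The groups did not overlap, but control 1 and mutant 4 were next to each other at 3.78 and 3.85 CPM. These levels rest on few reads, from 18 in control 2 to 210 in mutant 2. The means were 2.77 ± 0.861 and 5.16 ± 1.76 CPM, a ratio of 1.86, and the log2 fold change was 0.78 (SE 0.23, interval 0.27 to 1.29, limma adjusted p 0.270). Without mutant 2 it was 0.59 and without control 2 it was 0.61. *Myh11* lies on the minus strand of chromosome 16 from 14194535 to 14291372, and 6 of its 60-base transcript windows, the length of a read, are also found in other annotated genes (2), one of them the non-muscle myosin *Myh10*.

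*Actg2*, the gamma actin of enteric and other visceral smooth muscle, was at 11.3, 12.04, 13.6 and 11.6 CPM in control 1 to 4 and at 15.1, 22.002, 14.4 and 15.8 CPM in mutant 1 to 4. The highest control-labelled value, 13.6 CPM, was below the lowest mutant-labelled one, 14.4 CPM, and mutant 2 stood above the other 7 libraries. The means of 12.1 ± 1.04 and 16.8 ± 3.51 CPM gave a ratio of 1.38 and a log2 fold change of 0.44 (SE 0.13, interval 0.15 to 0.72, limma adjusted p 0.270). Without mutant 2 the log2 fold change was 0.30. *Actg2* lies on the minus strand of chromosome 6 from 83512905 to 83536265.

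*Myocd* encodes myocardin, the coactivator that binds serum response factor on cardiac and smooth muscle genes. It was at 59.4, 54.4, 49.0 and 48.9 CPM in control 1 to 4 and at 42.7, 38.7, 46.9 and 47.2 CPM in mutant 1 to 4. The groups did not overlap, with control 4 at 48.9 CPM just above mutant 4 at 47.2 CPM. The means were 52.9 ± 5.03 and 43.9 ± 4.02 CPM, a ratio of 0.829, and the log2 fold change was -0.27 (SE 0.09, interval -0.46 to -0.07, limma adjusted p 0.313). Leaving out 1 library at a time gave values from -0.30 to -0.21. The coactivator was at a lower level in the same libraries in which *Rgs5*, *Actg2* and *Myh11* were at a higher one. *Myocd* lies on the minus strand of chromosome 11 from 65176561 to 65269989.

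*Smtn*, which encodes smoothelin, an actin-binding protein of contractile smooth muscle, was at 100.5, 114.2, 116.3 and 95.5 CPM in control 1 to 4 and at 93.0, 83.4, 100.1 and 97.0 CPM in mutant 1 to 4. The groups overlapped, since control 4 was below mutant 3 and mutant 4. The log2 fold change was -0.19 (SE 0.08, interval -0.37 to -0.01, limma adjusted p 0.402), and it was -0.07 after a trend with transcript GC content was removed from each library. *Smtn* lies on the minus strand of chromosome 11 from 3517523 to 3540612. Of its exon bases, 714 (16.3%) overlap a transcript on the opposite strand, *Gm11946*.

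**Figure D2:**
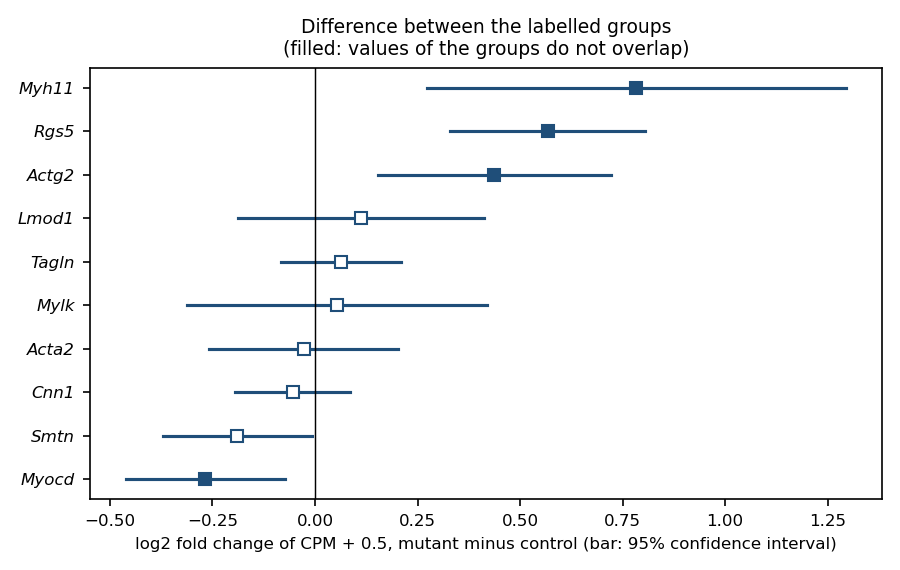
Log2 fold change of log2(CPM + 0.5), mutant minus control (x axis), for each of the 10 genes (y axis, ordered by the value). Squares mark the estimate, bars its 95% confidence interval and filled squares the 4 genes whose groups do not overlap. The estimates run from -0.27 for Myocd to 0.78 for Myh11, and Myh11 has the widest interval.

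*Acta2*, the actin of vascular smooth muscle and the most abundant of the 10 genes, was at 1664, 1689, 1388 and 1452 CPM in control 1 to 4 and at 1607, 1266, 1490 and 1734 CPM in mutant 1 to 4. Mutant 4 was the highest and mutant 2 the lowest of all 8 libraries. The means were 1548 ± 150.8 and 1524 ± 198.6 CPM, and the log2 fold change was -0.03 (interval -0.26 to 0.20, limma adjusted p 0.926), with 0.06 without mutant 2. *Acta2* lies on the minus strand of chromosome 19 from 34241090 to 34255590.

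*Tagln*, which encodes transgelin (SM22 alpha), an early marker of smooth muscle differentiation, was at 634.9, 644.7, 573.5 and 590.4 CPM in control 1 to 4 and at 645.7, 626.9, 608.7 and 670.9 CPM in mutant 1 to 4. The log2 fold change was 0.06 (interval -0.08 to 0.21, limma adjusted p 0.707). *Cnn1*, the calponin that restrains actomyosin in contractile smooth muscle, was at 308.8, 321.0, 283.5 and 285.5 CPM in control 1 to 4 and at 277.2, 300.3, 283.9 and 291.9 CPM in mutant 1 to 4. Its log2 fold change was -0.05 (interval -0.19 to 0.09, limma adjusted p 0.740). For both genes the groups overlapped. *Tagln* lies on the minus strand of chromosome 9 from 45929619 to 45936058, and *Cnn1* on the plus strand of the same chromosome from 22099216 to 22109630. Of the exon bases of *Tagln*, 62.4% lie opposite an antisense gene, *Gm48529*, which averaged 16.9 CPM in control-labelled libraries against 15.8 CPM in mutant-labelled ones. The kit keeps the strand, but whether the counting used it is not given in the sources used here.

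*Lmod1*, the leiomodin that nucleates actin filaments in smooth muscle, was at 8.75, 9.29, 7.06 and 7.48 CPM in control 1 to 4 and at 8.92, 6.92, 10.2 and 9.52 CPM in mutant 1 to 4. Mutant 2 was below every control-labelled library and the other mutant-labelled ones ranged up to 10.2 CPM. The log2 fold change was 0.11 (interval -0.19 to 0.41, limma adjusted p 0.749), and it ran from 0.05 without mutant 3 to 0.22 without mutant 2 when single libraries were left out. *Mylk* encodes the kinase that starts contraction by phosphorylating the myosin light chain, and it was at 19.1, 25.4, 30.9 and 24.3 CPM in control 1 to 4 and at 21.7, 36.1, 22.7 and 24.0 CPM in mutant 1 to 4. Its log2 fold change was 0.05 (interval -0.31 to 0.42, limma adjusted p 0.908), and -0.11 without mutant 2, which held the highest value of the 8 libraries. *Lmod1* is on the plus strand of chromosome 1 from 135324807 to 135368065 and *Mylk* on the plus strand of chromosome 16 from 34745210 to 35002420.

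Between genes, levels were compared as the mean CPM per kilobase of annotated exons. In the control-labelled libraries *Acta2* led with 705.1 ± 68.7 CPM per kilobase, followed by *Tagln* at 307.3 ± 17.3, *Cnn1* at 109.6 ± 6.67, *Rgs5* at 53.4 ± 4.88 and *Smtn* at 24.3 ± 2.32. *Myocd* at 8.24 ± 0.783 and *Actg2* at 7.80 ± 0.668 were next to each other and overlapped. *Mylk* at 2.21 ± 0.433 and *Lmod1* at 2.06 ± 0.266 also overlapped, and *Myh11* came last at 0.365 ± 0.113. The other neighbours in this order did not overlap over the 4 libraries of either group.

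For percentiles, the control-labelled mean of each of the 10 genes was set among the means of all genes over the libraries of both groups. On this scale *Acta2* stood at percentile 99.8 of all genes and *Myh11* at 4.27. The marker most restricted to smooth muscle was therefore near the bottom of the table, while *Acta2* and *Tagln*, which early heart muscle also transcribes, were near the top and *Myocd* was at percentile 60.5, so the 10 genes are called by name rather than as a measure of smooth muscle. In the mutant-labelled libraries the order was the same except that *Actg2*, at 10.8 ± 2.25 CPM per kilobase, was above *Myocd* at 6.83 ± 0.626, and here these neighbours did not overlap. *Rgs5* was at 79.6 ± 12.8 CPM per kilobase and remained the fourth. With the length of the longest transcript in place of all exons, the order in the control-labelled libraries was the same.

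*Acta2* made up 50.5% to 58.9% of the summed CPM per kilobase of the 10 genes, with the lowest share in mutant 2, and *Acta2* and *Tagln* together made up 78.1% to 84.0%. A sum over the 10 genes is therefore mostly a reading of *Acta2* and *Tagln*. In CPM the sum was 2693 to 3096 in the control-labelled and 2821 to 3184 in the mutant-labelled libraries, which overlap.

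The 6 actin genes encode nearly identical proteins, so that reads of 60 bases could be assigned to the wrong one. The last 60 coding bases of 4 of them, without the stop codon, are shown to let the difference be seen, with capitals where a base differs from *Acta2* (GRCm38).
Acta2: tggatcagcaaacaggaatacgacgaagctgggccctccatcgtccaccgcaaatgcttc
Actg2: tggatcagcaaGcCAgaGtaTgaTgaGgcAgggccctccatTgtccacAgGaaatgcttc
Actc1: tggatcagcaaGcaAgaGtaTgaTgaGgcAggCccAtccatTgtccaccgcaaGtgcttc
Acta1: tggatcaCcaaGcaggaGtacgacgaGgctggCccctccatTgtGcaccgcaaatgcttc

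Over these 60 bases *Actg2* and *Actc1* each differ from *Acta2* at 11 positions and *Acta1* at 7. Over the whole coding sequence the identity to *Acta2* was 84.2% for *Actg2*, 82.6% for *Actc1* and 85.4% for *Acta1*, and 0 of the 60-base windows of any other actin occurred unaltered in the coding sequence of *Acta2*. No 60-base window of the annotated transcripts of *Acta2* or *Actg2* was found in another gene. A read of full length without errors can thus be placed on these 2 genes alone.

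The log2 fold changes of the 2 smooth muscle actins were -0.03 (*Acta2*) and 0.44 (*Actg2*), a difference that was not tested. Per kilobase, *Acta2* exceeded *Actg2* by 104.6, 99.5, 72.2 and 88.4 times in control 1 to 4 and by 75.5, 40.8, 73.5 and 77.6 times in mutant 1 to 4. The ranges overlapped through control 3, and the lowest ratio was that of mutant 2. *Actc1*, the cardiac actin, averaged 6244 ± 566.7 CPM in control-labelled libraries against 4961 ± 421.5 CPM in mutant-labelled ones (log2 fold change -0.33, limma adjusted p 0.287), and the groups did not overlap. The ratio of *Acta2* to *Actc1* per kilobase was 0.183 ± 0.0114 and 0.226 ± 0.0125, with no overlap between the groups. With *Acta2* at -0.03 and *Actc1* at -0.33, this ratio mostly restates the values of *Actc1* and is not a separate result. The skeletal actin *Acta1* averaged 356.8 and 315.7 CPM, with overlapping groups (log2 fold change -0.19, and -0.08 without mutant 2), and the log2 fold changes of the cytoskeletal *Actb* and *Actg1* were 0.0024 and 0.07. That of *Actb* was 0.025 without mutant 2.

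Markers of cardiomyocytes had lower levels in the mutant-labelled libraries. Of 16 such markers, 16 had a lower mean in the mutant-labelled libraries, 12 did not overlap (3.9% of all genes), 15 had an unadjusted p under 0.05 (6.62% of all genes) and 0 passed the adjusted threshold in limma. Their summed level was 24591 to 28565 CPM in control-labelled libraries against 19482 to 22907 CPM in mutant-labelled ones, and the median of their log2 fold changes was -0.36. *Myocd*, with -0.27, is itself a gene of heart muscle. The part of the cardiomyocyte RNA in the values of *Myocd*, *Acta2* and the other genes was not tested.

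The libraries did not order the 10 genes in a single way. After subtracting each group's mean of log2(CPM + 0.5), the 45 pairs of genes had 23 positive and 22 negative correlations over the 8 libraries, with a median r of 0.0084. These are descriptions over few libraries that share depth and tissue makeup. *Acta2* and *Tagln* varied together (r 0.800, rho 0.810), and did so also without the 2 libraries farthest from the median of the first gene (r 0.923). *Myocd* and *Lmod1* had r 0.889 (rho 0.762) and 0.913 without them. *Myh11* and *Rgs5*, in this order, had r 0.820 (rho 0.810), and 0.748 without them.

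The highest r was that of *Mylk* and *Actg2*, 0.924 (rho 0.905), which was 0.606 without the 2 most distant libraries. The lowest was that of *Lmod1* and *Actg2*, -0.844 (rho -0.667), which was -0.197 without them. Of the 45 pairs, 34 kept their sign without mutant 2. In that library *Myh11*, *Mylk*, *Actg2* and *Rgs5* were above the mean of their group by 0.59, 0.49, 0.40 and 0.27 on the log2 scale, while *Lmod1*, *Acta2*, *Myocd* and *Smtn* were below it, with deviations of -0.33, -0.26, -0.17 and -0.16. Mutant 2 also had the highest values of the epicardial markers *Upk3b*, 249.2 CPM against 149.0 to 204.2 CPM in the other 7 libraries, and *Tbx18*, 103.8 CPM against 55.5 to 81.2 CPM. Over the whole list of 9 epicardial markers the sum was 406.6 to 530.7 CPM in control-labelled libraries against 387.6 to 665.6 CPM in mutant-labelled ones, with at most 465.7 CPM outside mutant 2. The sums of the erythroid (5663 CPM), macrophage (94.3 CPM) and mesenchyme markers (7883 CPM) were also highest of all libraries in mutant 2. Those of the cardiomyocyte (19482 CPM) and of the neural crest, glia and neuron markers (205.7 CPM) were lowest there. The part of these cell types in the deviations of mutant 2 was not tested.

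**Figure D3:**
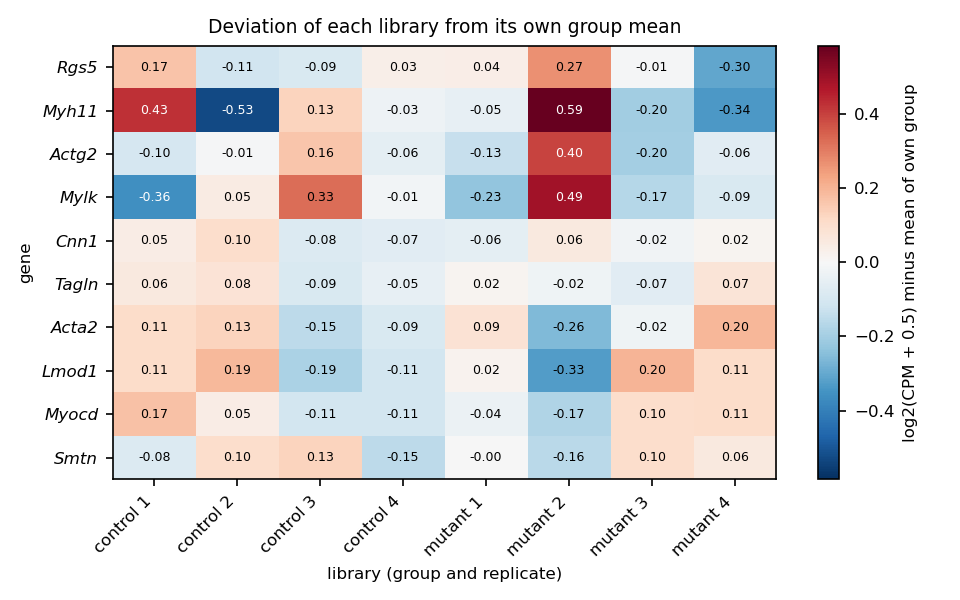
Deviation of each library (x axis, group and replicate) from the mean of its own group, in log2(CPM + 0.5), for each of the 10 genes (y axis), red above and blue below the mean, with the value in each cell. Mutant 2 holds the highest values of Myh11 (0.59), Mylk (0.49) and Actg2 (0.40) and the lowest of Lmod1 (-0.33) and Acta2 (-0.26), the lowest value of all is that of Myh11 in control 2 (-0.53), and Tagln and Cnn1 deviate least.

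Outside the 10 genes, those whose deviations were most like the mean standardized deviation of the 10, among 11642 genes averaging at least 5 CPM, were *Gm49395* (r 0.978), *Pomt2* (0.964), *Yars* (0.946), *Shb* (0.939) and *Atp8a2* (0.939). Each r is over the 8 libraries, and nothing is read from these names.

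Paralogs of the 10 genes were also mixed in direction. Of 22 paralogs 20 were listed (*Mylk2* and *Mylk4* were not), with 10 positive and 10 negative log2 fold changes and 0 past the limma threshold. *Rgs4*, a relative of *Rgs5*, averaged 8.28 ± 1.09 CPM in control-labelled libraries against 12.9 ± 3.82 CPM in mutant-labelled ones, and its groups did not overlap (log2 fold change 0.58, limma adjusted p 0.272, and 0.40 without mutant 2, where it was at 18.3 CPM). For *Rgs2*, which also limits G protein signalling, the means were 14.1 and 17.4 CPM and the groups overlapped. The striated muscle leiomodins had log2 fold changes of -0.35 (*Lmod3*) and -0.09 (*Lmod2*), beside 0.11 for *Lmod1*. The cardiac myosin light chain kinase *Mylk3* had -0.17, beside 0.05 for *Mylk*. The calponins *Cnn2* and *Cnn3*, which occur in many cell types, had -0.08 and 0.15, beside -0.05 for *Cnn1*, and without mutant 2 they had -0.03 and 0.08. That of *Lmod2* was -0.16 without mutant 2.

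Among 22 regulators of smooth muscle transcription, serum response factor included, 22 were listed, 13 had positive log2 fold changes, 0 passed the limma threshold and the median was 0.05. *Srf* itself averaged 107.9 ± 16.3 and 87.5 ± 5.81 CPM (log2 fold change -0.29, limma adjusted p 0.322), with overlapping groups, so that both *Myocd* and its partner had lower means in the mutant-labelled libraries. *Tgfb1i1*, a coactivator that promotes smooth muscle genes, was at 177.9 and 152.8 CPM. *Heyl* and *Jag1*, a target and a ligand of NOTCH signalling in vascular smooth muscle, were the 2 genes of the list that were higher without overlap. Of all genes 3.2% were. The receptor *Notch3*, in the same list, averaged 121.7 ± 4.72 and 124.0 ± 24.6 CPM, with overlapping groups. Its log2 fold change was 0.0037 (limma adjusted p 0.993), and 0.15 without mutant 2. *Heyl* was at 30.1 ± 2.52 and 38.2 ± 2.90 CPM (log2 fold change 0.34, limma adjusted p 0.234), and *Jag1* at 94.5 ± 5.65 and 113.7 ± 7.48 CPM (log2 fold change 0.27, limma adjusted p 0.240).

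Of 36 further contractile and cytoskeletal genes, 35 were listed (*Kcnma1* was not), 21 were positive and 14 negative, 0 passed the limma threshold, and the median was 0.03. *Cald1*, the caldesmon that binds actin and myosin, averaged 269.1 ± 22.8 and 321.1 ± 7.68 CPM without overlap (log2 fold change 0.26, limma adjusted p 0.251). *Pde5a*, the phosphodiesterase that ends cyclic GMP signals in smooth muscle, averaged 18.8 ± 0.828 and 23.7 ± 2.35 CPM, also without overlap (0.33, limma adjusted p 0.254). *Myl9*, the regulatory light chain of smooth muscle myosin, was the gene of the list that was lower without overlap, at 810.4 ± 45.7 and 718.3 ± 38.2 CPM (-0.17, limma adjusted p 0.380), and it was picked out after its values were seen. Of the 35 listed genes, 2 were higher without overlap, beside 3.2% of all genes, and 1 was lower, beside 3.9%. Nothing is read from these counts. *Des*, the intermediate filament protein of all muscle, averaged 675.7 ± 71.8 and 515.8 ± 96.2 CPM with overlap (-0.40, limma adjusted p 0.284), and *Ppp1r12b*, a subunit of myosin phosphatase, had -0.24.

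Of 21 mural and pericyte genes 17 were listed, and *Vtn*, *Higd1b*, *Foxf2* and *Steap4* were not. There were 7 positive and 10 negative log2 fold changes, 0 past the limma threshold, and a median of -0.03. *Pdgfrb*, the receptor through which mural cells are recruited, averaged 144.2 ± 10.2 and 169.9 ± 11.98 CPM (0.24, limma adjusted p 0.287) with overlapping groups. The 2 subunits of a potassium channel of pericytes, *Abcc9* and *Kcnj8*, had log2 fold changes of -0.68 and 0.59, *Abcc9* with means of 60.5 ± 14.3 and 37.9 ± 10.1 CPM, and *Kcnj8*, at 1.70 and 2.88 CPM, with few reads. *Abcc9* is also a channel subunit of heart muscle. *Anpep* and *Ebf1* had -0.23 and -0.22, which was -0.15 for *Anpep* without mutant 2 and -0.13 for *Ebf1* without control 4.

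The immediate early and cytoskeletal targets of serum response factor, 12 of 13 listed (*Egr2* was not), had 5 positive and 7 negative log2 fold changes, 0 past the limma threshold and a median of -0.03. *Tpm4* averaged 487.3 ± 17.4 and 586.2 ± 95.2 CPM without overlap, with 727.6 CPM in mutant 2 against 519.8 to 549.3 CPM in the other 3 mutant-labelled libraries, and its log2 fold change of 0.25 was 0.15 without mutant 2. *Filip1l* had a log2 fold change of 0.26, and *Egr1* and *Ier2* had -0.16 each, which for *Ier2* was -0.03 without mutant 2 and -0.05 without control 2, and for *Egr1* was -0.09 without control 4 and -0.10 without mutant 1.

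**Figure D4:**
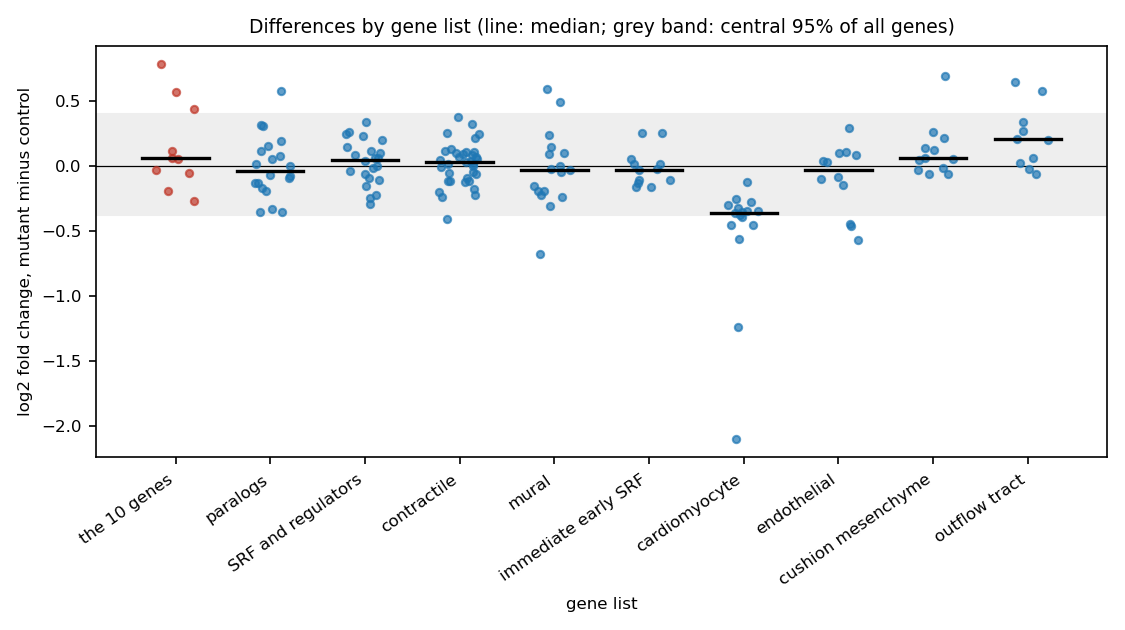
Log2 fold change, mutant minus control (y axis), of every listed gene of the 10 genes (red) and of 9 gene lists (blue), with the median of each as a black line and the central 95% of all 14608 genes as a grey band, from -0.38 to 0.40. The medians of the 10 genes, paralogs, regulators, contractile, mural and immediate early genes lie between -0.03 and 0.06, the cardiomyocyte median is -0.36 and the OFT median is 0.21.

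Of the other cell types that an OFT sample can hold, the medians of the log2 fold changes were -0.03 for 12 endothelial and endocardial markers, 0.06 for 12 cushion mesenchyme markers, 0.09 for 8 listed neural crest, glia and neuron markers, 0.11 for 9 epicardial markers, 0.20 for 11 erythroid markers, -0.01 for 10 macrophage markers and 0.21 for 10 OFT and second heart field markers. Without mutant 2 the medians were -0.06 for the epicardial, -0.07 for the erythroid and -0.14 for the macrophage markers. The sum of the mesenchyme markers was 6269 to 6720 CPM in control-labelled libraries against 5707 to 7883 CPM in mutant-labelled ones, with the highest sum in mutant 2 and at most 7240 CPM in the other 3. No marker of any list passed the limma threshold. The part of these cell types in the levels of the 10 genes was not tested.

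Promoter sequence was matched in the RefSeq table for 6 of the 10 genes, *Acta2*, *Cnn1*, *Lmod1*, *Mylk*, *Rgs5* and *Smtn*. *Tagln*, *Myh11*, *Actg2* and *Myocd* were not matched there and were not searched. The bases before the start of *Mylk* (chr16:34784700-34784949) and of *Smtn* (chr11:3539293-3539542) lie wholly inside the gene models used here. For these 2 genes the start is thus an internal one of the model. The window of 250 bases before and 50 bases after the start was searched on both strands for the CArG box, the site that serum response factor binds. An exact CArG box was found in 0 of 6 windows, and in 1.63% of 32851 promoters of the table. With at most 1 substitution allowed, a setting chosen after seeing the data, it was found in 2 of the 6, *Acta2* and *Lmod1*, and in 21.1% of all promoters. The 4 near matches before the start are shown in capitals with 10 bases on each side, because they were all that the search found there (RefSeq, GRCm38.p6). Both matches of *Acta2* lie within its annotated first exon in the gene models used here, which covers 217 of the 250 bases before the RefSeq start.
Acta2, 84 bases before the start, chr19:34255438-34255467, minus strand: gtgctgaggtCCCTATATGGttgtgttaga
Acta2, 34 bases before the start, chr19:34255388-34255417, minus strand: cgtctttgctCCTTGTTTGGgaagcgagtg
Lmod1, 189 bases before the start, chr1:135324614-135324643, plus strand: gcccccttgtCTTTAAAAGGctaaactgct
Lmod1, 164 bases before the start, chr1:135324639-135324668, plus strand: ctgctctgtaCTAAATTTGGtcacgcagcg

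The CCAAT motif was not in the plan, which named the CArG box alone. On either strand it was present in 5 of the 6 windows, all but that of *Acta2*, and in 37.4% of all promoters. Of the 2 genes with near CArG boxes the log2 fold changes were -0.03 (*Acta2*) and 0.11 (*Lmod1*), and of the 5 with a CCAAT motif they ran from -0.19 (*Smtn*) to 0.57 (*Rgs5*). A match is a description of the letters in this window, and whether a site is in use was not measured.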

How the data were processed

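RNA-seq of embryonic OFT was measured in 8 libraries, 4 control-labelled and 4 mutant-labelled, grouped by the genotype labels. As the study's methods and the labels give it, the authors removed adapters with cutadapt, quantified 60-base single-end reads with RSEM against GRCm38 and Ensembl gene models, retained genes reaching 1 CPM in several samples and scaled by TMM in edgeR. The deposited values are CPM, for 14608 genes, and 0 columns of the table were left out. The total counts behind them were read from the steps of the values, of which 100% were whole reads within 0.01. Members and gene lists were chosen with earlier results of these data known. All genes were fitted with limma 3.58.1 (R 4.3.3, lmFit and eBayes with a trend) on log2(CPM + 0.5), two-sided, with Benjamini-Hochberg adjustment at 0.05. The fit was tested on simulated data, but the outcome is not given here and nothing is read from it. Count-based tests were planned but not run, and the values were tested as CPM. Nothing says whether libraries of a group came from separate litters, so p-values measure only the spread between these libraries. Named genes were the 10 genes, up to 4 genes of each list with the largest moderated statistic and a mean of at least 5 CPM, all paralogs of *Acta2*, *Actg2*, *Mylk*, *Lmod1* and *Cnn1*, the 5 genes most like the mean of the 10 deviations, each divided by its SD, *Gata6* and *Mib1*, and the 2 most abundant markers of each cell type, most of which are described by their list alone. *Kcnj8*, *Myl9* and *Notch3* were named after their values were seen. Gene models and lengths are from GENCODE vM21 (GRCm38), in which 14594 of the identifiers were found, and promoters from RefSeq (GRCm38.p6). Alternatives covered the pseudocount, a mean filter, 3 other scalings, library weights, a replicate block, a GC correction and leaving out each library. Replicate numbers did not pair the samples.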

Additional observations from a re-analysis of the deposited data

Results flagged for a closer look

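One value of the 10 genes stood apart from the rest of its group. *Mylk* in mutant 2 was at 36.1 CPM, against 21.7 to 24.0 CPM in the other 3 mutant-labelled libraries, and its gap to the nearest of them was 0.842 of the range of the group, above the 95% critical value of Dixon's test for 4 samples, 0.829. Of the 20 groups of values tested (10 genes in 2 groups) this was the only one, and chance flags about 1 in 20. The library is the one with the lowest quality weight in limma, 0.308.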

How the results depend on the processing

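In the 19 alternatives run, 0 of the 10 genes passed the limma threshold (9 were tested under the filter of a mean of at least 5 CPM, which removes *Myh11*), with adjusted p from 0.116 to 0.483 for *Rgs5*. Over all genes 0 were called in each alternative but library quality weights, which called 2 (1 higher and 1 lower, smallest adjusted p 0.0465, none of the 10). *Rgs5*, *Myh11* and *Actg2* stayed positive and *Myocd*, *Smtn* and *Cnn1* negative in each alternative in which they were tested, with log2 fold changes from 0.45 to 0.67 for *Rgs5*, 0.53 to 0.93 for *Myh11*, 0.30 to 0.50 for *Actg2* and -0.30 to -0.20 for *Myocd*. The small difference of *Acta2* changed sign, to 0.072 with quantile normalization and 0.065 with library weights, and ran from -0.092 to 0.059 when 1 library was left out. That of *Mylk* was -0.049 with library weights and ran from -0.11 to 0.16 when 1 library was left out. The cause was not tested. Without TMM scaling the median of all genes was 0.022 on the log2 scale.

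With the replicate number as a block, 0 of all genes were called (smallest adjusted p 0.412), and *Rgs5* had an adjusted p of 0.435. Deviations of same-numbered libraries correlated by 0.035, -0.19, 0.027 and -0.045, so the numbers were not read as pairs. The planned edgeR likelihood ratio and quasi-likelihood tests and DESeq2 were not run on the deposited CPM, and the longer promoter window was not run for want of a genome sequence. *Myh11* rests on as few as 18 reads in control 2, the shallowest library.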
